A study of Mus musculus with 15 samples.

Results

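The hearts of 5 db/db mice that received rosiglitazone were compared with the hearts of 5 db/db mice that did not, which is 10 of the 15 arrays of the series, and the members were taken by their titles. All 10 mice carried the leprdb mutation of the leptin receptor on both chromosomes, on the C57BL/KLS background, so that obesity and type 2 diabetes are common to treated and untreated mice. The treated mice received rosiglitazone in their chow at 5 mg/kg per day, and hearts were taken after 4 months. The other 5 arrays were heterozygous db/+ littermates without diabetes, and they enter here through a shared estimate of the spread and through values set beside those of the treated and untreated hearts. Age and sex of the single mice are not given in the sources used here. Each array held RNA of 1 whole heart, labelled with Cy5, against a mixed mouse reference RNA, labelled with Cy3. A level is the log2 ratio of heart to reference, and a difference is treated minus untreated on this log2 scale, so that 1 is a doubling. Levels are given for untreated replicates 1 to 5, and then for treated replicate 1, treated replicate 2, the mean of treated replicates 3 and 4, and treated replicate 5. Whole hearts hold many cell types, and fewer cells of a type and less RNA per cell cannot be told apart.

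Rosiglitazone is a thiazolidinedione that binds PPARγ (Pparg), a nuclear receptor which pairs with RXR and switches on genes of lipid storage and fatty acid handling. PPARγ is most abundant in fat, where its targets include Fabp4, adiponectin and perilipin, while the heart depends more on PPARα and PPARδ, which drive fatty acid import and oxidation. In macrophages, PPARγ also acts on the liver X receptor LXR, which turns on the cholesterol exporters Abca1 and Abcg1 and represses cholesterol uptake.

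Treated replicates 3 and 4 could hardly be told apart. Their heart signals differed with a median absolute deviation of 0.143 in log2, against 0.268 to 0.624 for other pairs of 1 group. In the common reference RNA, 100 of 105 pairs of arrays differed by at least as much as these hearts did. Both arrays were therefore averaged into 1 sample, which left 4 treated and 5 untreated samples and 11 residual degrees of freedom in the limma fit. Treated replicates 1 and 2 shared slide 3 with untreated replicates 4 and 5, while untreated replicates 1 to 3 lay on slide 2 and treated replicates 3 to 5 on slide 4. The heart signal was above background for 61.4% to 75.6% of probes on these 10 arrays. The defining markers of heart muscle were present, since all 10 cardiomyocyte markers were above background on all 10 arrays.

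No gene passed an adjusted p under 0.05. Of 27593 probes tested with limma, 0 were called (0%), with Kcnip4 nearest to the threshold at an adjusted p of 0.083. The Kcnip4 probe passed the filter on dim probes only through the treated arrays, where it was high. At an unadjusted p under 0.05 stood 2423 probes (8.78%). Counted by gene, at the brightest probe of each, 1374 of 15224 genes (9.03%) had an unadjusted p under 0.05, 647 higher (4.25%) and 727 lower (4.78%) in treated hearts. The values of all treated samples lay above those of all untreated samples for 362 genes (2.38%) and below them for 416 (2.73%). The difference exceeded 2-fold upward in 73 genes and downward in 130, the median difference of all genes was -0.006, and 48.5% of the differences were above 0. In what follows an unadjusted p is given as a description of a single gene, and no single gene is called changed. Counts of list members at this threshold are to be read beside the 4.25% higher and 4.78% lower among all genes.

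Genes that rosiglitazone induces in fat showed no common direction in the heart. Of 20 fat targets of PPARγ, 16 were tested, 7 of the 16 differences were above 0, and the median was -0.02. At an unadjusted p under 0.05, 0 were higher and 1 was lower. That gene was Cfd, the serine protease adipsin of fat cells, with levels of 0.68, 2.50, 0.35, 0.51 and 1.02 in untreated replicates 1 to 5 and of -0.77, 0.27, -0.53 and -0.60 in the 4 treated samples. Cfd was above background on 3 untreated arrays and 1 treated array, and passed the filter through the 5 db/+ arrays. The treated values are therefore mostly readings near background, and the fitted difference of -1.42 (limma unadjusted p = 0.013) has no exact size. Fabp4, the fatty acid-binding protein of fat cells and capillaries, had levels of 4.90, 6.83, 4.98, 6.33 and 4.37 in untreated and of 6.16, 6.05, 6.34 and 6.56 in treated hearts. The treated values lay inside the untreated range, and the difference was 0.80 (95% interval -0.64 to 2.23). Its 2 other probes gave 0.45 and -0.25, so the sign was not shared, and the reference channel of the first probe differed by -0.68.

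Adiponectin (Adipoq), the insulin-sensitizing hormone of fat, was above background on 1 untreated array and 0 treated arrays, so no difference can be given. The lipase Lipe differed by -0.32, the lipid droplet protein Cidec by -0.96 and Plin1 by -0.15. The insulin-responsive glucose transporter Slc2a4 differed by 0.43 (95% interval -0.72 to 1.58) and Trarg1, a protein that travels with it, by 0.24. Scd1, which desaturates fatty acids, differed by -0.21, the acyltransferase Agpat2 by 0.08, Gpd1 by 0.14, glycerol kinase Gk by 0.02, the glycerol channel Aqp7 by -0.03 and the fat cell factor Cebpa by -0.09. All of these had overlapping groups. Lep, Nnat and Retn were below the filter on dim probes, and Lep was above background on none of the 10 arrays.

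The receptor itself was measured closely. Pparg had levels of 1.63, 1.78, 1.55, 1.36 and 1.82 in untreated and of 1.64, 1.40, 1.72 and 1.62 in treated hearts, a difference of -0.03 (95% interval -0.26 to 0.20). None of 18 PPAR receptors and cofactors had an unadjusted p under 0.05, and their median was 0.01. Ppard differed by 0.52 (limma unadjusted p = 0.073), Ppara by 0.05, Rxra by 0.14, Rxrb by -0.02 and Rxrg by -0.32. Ppargc1a differed by 0.16 at its brightest probe and by -0.32 at another, Ppargc1b by -0.05 and Lpin1 by 0.27. Rxra was the member whose groups did not overlap. The coactivators Med1, Ncoa1, Ncoa2 and Ncoa3 lay between -0.06 and 0.09 at their brightest probes, while 2 other Med1 probes gave 0.15 and 0.41, the latter without overlap (limma unadjusted p = 0.0057), and the corepressors Ncor1 and Nrip1 both at -0.09. Nr1h3, which encodes LXRα, differed by 0.09 and the fatty acid chaperone Fabp5 by 0.03.

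PPAR target genes of heart muscle leaned downward. All 36 were tested, 0 were higher and 8 were lower at an unadjusted p under 0.05, 11 differences were above 0, and the median was -0.14. In untreated db/db hearts, which serve as controls in this comparison and as the test group against db/+, 16 of the 36 were higher than in db/+ hearts at an adjusted p under 0.05 and 0 were lower, where 8.59% of all genes passed in either direction. Acot1, a cytosolic thioesterase that splits fatty acyl-CoA, had levels of 3.29, 3.61, 2.03, 1.55 and 2.87 in untreated and of 1.98, 1.32, 1.65 and 1.65 in treated hearts. Treated replicate 2 was below all untreated hearts and the other treated values were in the lower part of the untreated range, with a difference of -1.02 (95% interval -1.78 to -0.25, limma unadjusted p = 0.013, adjusted p = 0.46). Its untreated minus db/+ difference was 2.50, and that of its mitochondrial relative Acot2, which was lower by 0.49 in treated hearts, was 1.34.

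Fgf21, a fasting hormone, had levels of -2.35, -0.44, -2.51, -2.53 and -1.34 in untreated and of -2.58, -2.90, -2.87 and -2.78 in treated hearts. All treated values lay just below the untreated ones, with a difference of -0.95 (95% interval -1.71 to -0.19) and the highest level in untreated replicate 2. The other Fgf21 probe differed by -0.93, with overlap between the groups. Cyp4a14, which hydroxylates fatty acids and is also abundant in liver, was lower by 2.23, with 6.75 in untreated replicate 2 and 0.57 to 1.74 in treated hearts. The carnitine carrier Slc22a5 was lower by 0.26, the peroxisome division factor Pex11a by 0.26 and the uncoupling protein Ucp2 by 0.24.

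The central genes of fatty acid oxidation did not share this. Cpt1b, the muscle carnitine palmitoyltransferase, differed by 0.00 (95% interval -0.74 to 0.74, with untreated replicate 5 left out by its spot flag), Cd36 by -0.05, Plin2 by 0.03, Plin5 by 0.07 and Ucp3 by -0.11. Pdk4, the kinase that shuts glucose out of the mitochondrion, was lower by 0.61 (limma unadjusted p = 0.064), and Angptl4, the lipase inhibitor that is a strong PPAR target, differed by -0.73 (95% interval -2.04 to 0.57). Cpt1a, Acadl, Hadha, Mlycd, Acaa1b, Cyp4a10, Slc25a20, Lpl, Slc27a1, Vldlr, Cat and Creg1 lay between -0.37 and -0.05, and Acadm, Acaa2, Fabp3, G0s2, Plin4, Cidea, Cpt2 and Ehhadh between 0.05 and 0.71. Of 28 mitochondrial oxidation genes, 0 were higher and 1 was lower at an unadjusted p under 0.05, with a median of -0.01. Of 44 genes of oxidative phosphorylation, 34 differences were above 0, with a median of 0.08 and 0 at an unadjusted p under 0.05, and with normexp and loess the median of oxidative phosphorylation was -0.03. Without untreated replicate 2, which had the highest level of the heart PPAR target list (0.43, against -0.07 to 0.02 in the other untreated and -0.12 to -0.02 in treated hearts), the list counted 5 lower genes and a median of -0.09. With slide as a fixed block 1 gene was lower, and with normexp background correction and loess 3 were.

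PPAR and its partner RXR bind DR1, a direct repeat spelled AGGTCANAGGTCA. Searched on both strands with up to 2 mismatches, DR1 was found in 1268 of 32851 RefSeq promoters (3.86%, build GRCm38.p6, 250 bases before to 50 after the start of a gene) and in 6 of 31 promoters of the heart PPAR targets (19.4%). The 6 genes with a match differed by only -0.13 to 0.03 between treated and untreated hearts, and 0 of the 8 genes at an unadjusted p under 0.05, 6 of which had a promoter in the table, held a match. The stretches of 3 of them are printed because the list holds the repeat more often than promoters at large while these genes lay near 0. They run on the strand of the gene, with the match in capitals (2 mismatches in each, and on the opposite strand for Cd36 and Plin2), at chr7:100472932-100472961 for Ucp3, chr5:17835938-17835967 for Cd36 and chr4:86670263-86670292 for Plin2.
Ucp3: tcagaattAGGTTTCAGGTCAgctggtgca
Cd36: tggttctcTGGCCTCTGACTTacttggatg
Plin2: agctttcaGGACCCCTGACCTaagtcagac
A match is a description of letters and not of binding, and distant sites were not searched.

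The main cholesterol exporters were higher in treated hearts. Abcg1, which passes cholesterol to high-density lipoprotein, had levels of -2.20, -2.72, -2.02, -1.79 and -2.69 in untreated and of -1.26, -1.26, -0.88 and -1.42 in treated hearts. All treated values were above all untreated ones, the level was 2.11-fold higher (difference 1.08, 95% interval 0.65 to 1.5, limma adjusted p = 0.32), and within slide 3 the difference was 0.98. Abca1, the exporter that loads cholesterol onto apolipoprotein A-I, had levels of -0.07, 0.33, 1.22, 0.83 and 0.27 in untreated and of 1.44, 1.20, 1.90 and 1.85 in treated hearts. Only untreated replicate 3 reached the lowest treated value, and the difference was 1.08 (95% interval 0.58 to 1.58, limma adjusted p = 0.38), with 0.77 within slide 3. The probes lie at chr17:30842647-30842706 for Abcg1 and at chr4:53052172-53052231 for Abca1 in the mm8 coordinates of the array files. Mylip, a ubiquitin ligase induced by LXR, was higher by 0.36, and Srebf1, an LXR target that governs fatty acid synthesis, by 0.42 (95% interval -0.09 to 0.93). The rest of the list of 14 did not follow, since Nr1h2, which encodes LXRβ, was lower by 0.29, Apoe differed by 0.16, Lpcat3 by -0.10, Pltp by -0.11, Scarb1 by -0.13 and Npc1 by 0.07. Of the 14, 3 were higher and 1 was lower at an unadjusted p under 0.05, and the median was 0.01. The LXR element DR4, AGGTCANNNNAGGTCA, was found with up to 2 mismatches on both strands in 993 of 32851 promoters (3.02%) and in 0 of 17 promoters of this list.

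Among 21 genes of cholesterol synthesis and its control, 18 differences were at or below 0, 3 were lower and 0 higher at an unadjusted p under 0.05, and the median was -0.13, against -0.006 for all genes. The list level of a heart, the median deviation of the members from their mean, was 0.02, 0.05, 0.04, 0.06 and 0.22 in untreated and -0.10, -0.15, -0.06 and -0.05 in treated hearts. Every treated heart was below every untreated one. Fdft1, squalene synthase, had levels of 0.09, -0.29, -0.29, -0.42 and 0.07 in untreated and of -0.43, -0.51, -0.44 and -0.55 in treated hearts. The groups did not overlap, though untreated replicate 4 lay close to the treated range, and the difference was -0.31 (limma adjusted p = 0.48). Sqle, squalene epoxidase, was lower by 0.47, and by 0.91 within slide 3. Fdps differed by -0.27, Insig1 by -0.33, Msmo1 by -0.19 and Srebf2 by -0.12. In untreated against db/+ hearts 0 genes of this list passed an adjusted p under 0.05 and the median was 0.04. The sterol element TCACNCCAC, searched on both strands without mismatch, was found in 408 of 32851 promoters (1.24%) and in 1 of 17 of this list. That was Hmgcs1, the first committed enzyme of the pathway, which differed by -0.09 here, and the stretch at chr13:119690204-119690233 is printed because it is the sole match, in capitals.
Hmgcs1: cgtcaccgtcTCACCCCACttcccaggtcc

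**Figure D1:**
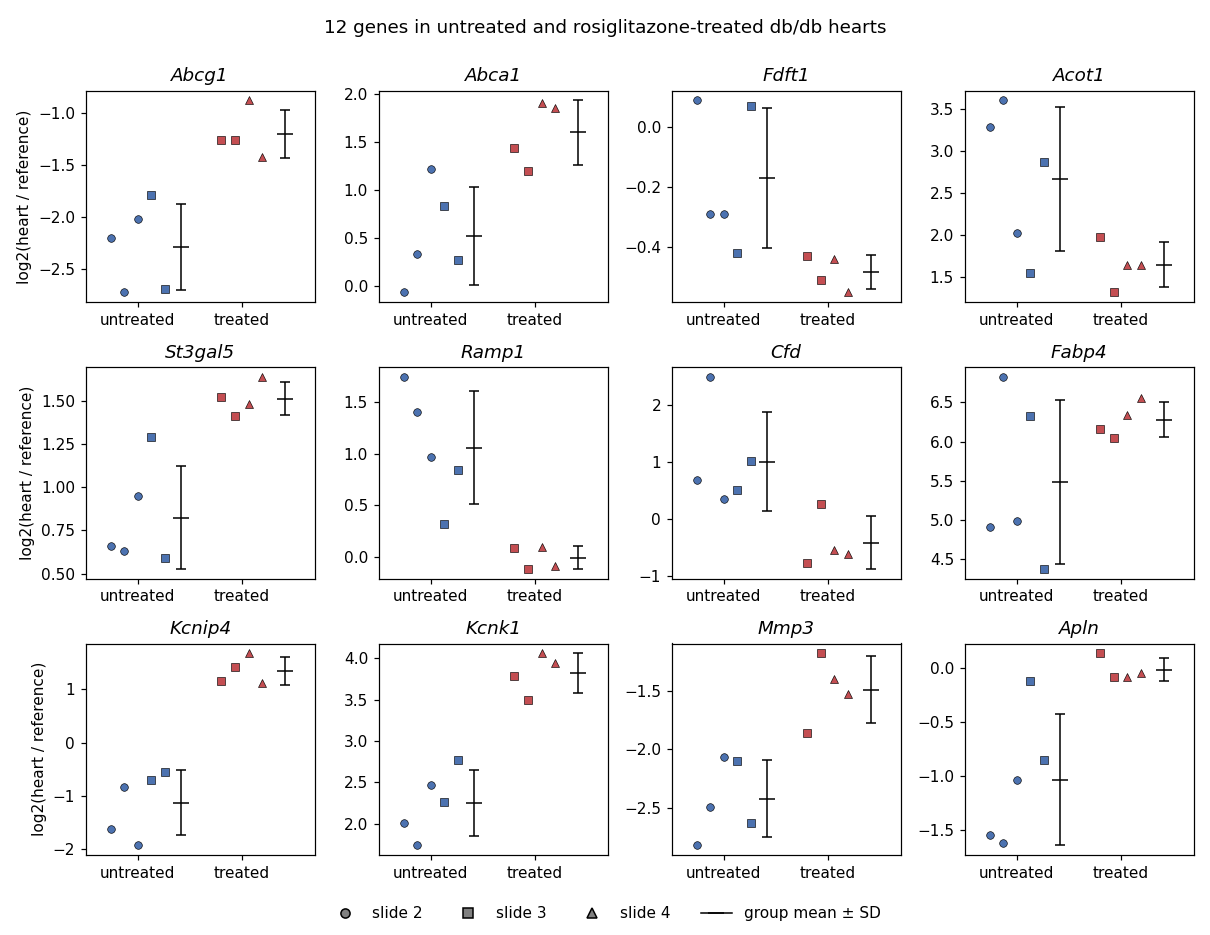
Level of 12 genes in each db/db heart, as log2 of heart over reference, with the scale set for each gene. Symbols give the slide, and the bars beside them are the group mean ± SD of 5 untreated and 4 treated samples; Abcg1, Fdft1, Ramp1, St3gal5, Cfd, Kcnip4, Kcnk1, Mmp3 and Apln do not overlap between groups, while Abca1, Acot1 and Fabp4 do.

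Glucose handling showed small differences. Of 33 genes of glucose uptake and glycolysis, 2 were higher and 1 was lower at an unadjusted p under 0.05, with a median of 0.05. Hexokinase Hk2, which traps glucose in muscle, was higher by 0.56, lactate dehydrogenase Ldhb by 0.53, and enolase Eno1 was lower by 0.29. Of 28 insulin signalling genes, the kinase subunit Pik3cb was higher by 0.18 and the receptor Igf1r lower by 0.27 (-0.42 to 0.30 at other probes), with a median of 0.02. In fatty acid and glycerolipid synthesis, 4 of 24 genes were higher and 0 lower, namely Lpin3 by 0.51, the desaturases Scd3 by 0.43 and Scd2 by 0.37, and the elongase Elovl5 by 0.19 (0.04 at another probe). Plin3, a lipid droplet coat protein, was higher by 0.34, the 1 gene of 19 on lipid droplets with an unadjusted p under 0.05. Dio2, the deiodinase that makes active thyroid hormone, was higher by 1.06, while the brown fat markers Ucp1 and Otop1 were above background on 0 of the 10 arrays.

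Potassium channel genes held the gene with the smallest p. Kcnip4, a calcium-binding partner of the Kv4 channels, had levels of -1.62, -0.83, -1.93, -0.70 and -0.56 in untreated and of 1.15, 1.41, 1.68 and 1.12 in treated hearts. The fitted difference was 2.47 (95% interval 1.77 to 3.17, limma adjusted p = 0.083), with 1.91 within slide 3. The heart signal was above background on 0 untreated, 0 db/+ and all 5 treated arrays. The probe thus passed the filter only through the group where it was high, so its p and interval are not support for a difference. The fold is a bound, at least 1.88-fold higher in treated hearts, from the heart channel after Aquantile scaling and open to dye bias. The probe lies at chr5:48677898-48677957 (mm8). Kcnk1, a leak channel that sets the resting potential, had levels of 2.01, 1.74, 2.47, 2.27 and 2.77 in untreated and of 3.78, 3.50, 4.06 and 3.94 in treated hearts. It was 2.97-fold higher without overlap (difference 1.57, 95% interval 0.77 to 2.37, limma adjusted p = 0.38). Kcnd3, which encodes a Kv4 channel, was lower by 0.46, but by 0.02 within slide 3. Kcne3, a channel subunit, was higher by 0.83 at 1 probe and by 0.22 at the other, and with normexp and loess it differed by -0.01. Of 25 potassium channel genes, these 3 were higher and Kcnd3 was lower at an unadjusted p under 0.05, and the median was 0.06. Among 27 calcium-handling genes 4 were higher and 0 lower, among them Camk2b by 0.39, Camk2d by 0.23 and the T-type channel Cacna1g by 0.52, and the 3 other probes of Camk2d gave -0.43 to -0.07. Ryr1, through which skeletal muscle releases calcium, differed by -0.22 at its brightest probe and by 2.04 and 1.81 at 2 others, a contradiction between probes. The brightest probe lacked untreated replicates 1 and 5. The 2 others were above background on 3 and 2 untreated arrays and on all 5 treated arrays, so their differences have no exact size.

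Sphingolipid genes had 5 of 36 members higher and 1 lower at an unadjusted p under 0.05, with a median of -0.01. St3gal5, which makes the ganglioside GM3, had levels of 0.66, 0.63, 0.95, 1.29 and 0.59 in untreated and of 1.52, 1.41, 1.48 and 1.64 in treated hearts. It was 1.61-fold higher without overlap (difference 0.69, 95% interval 0.38 to 1.0, limma adjusted p = 0.38). Cel, a lipase that also cleaves ceramide, was higher by 0.49, and the reference channel of its probe differed by 0.87. Cers6, a ceramide synthase, was higher by 0.38 and Kdsr, an early enzyme of the pathway, by 0.29 (0.08 and -0.09 at other probes), while Cers2 was lower by 0.21. The probes of Asah2, a ceramidase, gave 0.29, 0.27 and -0.64, the last above background on only 4 untreated and 2 treated arrays. Those of B4galnt1, a ganglioside transferase, gave -0.12 with overlap and 0.52 without overlap (limma unadjusted p = 0.00098). The probes of each gene disagree in sign, so no direction is given for these genes.

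Collagen and matrix genes leaned slightly upward, with overlap between the groups. Mmp3, the metalloproteinase stromelysin, had levels of -2.82, -2.49, -2.07, -2.10 and -2.63 in untreated and of -1.86, -1.18, -1.40 and -1.53 in treated hearts. It was 1.91-fold higher without overlap (difference 0.93, 95% interval 0.55 to 1.31, limma adjusted p = 0.32), and it stood alone among 20 metalloproteinases and inhibitors. The median of those 20 was 0.01. Of 38 collagen and matrix genes, 25 differences were above 0, 5 were higher and 2 lower at an unadjusted p under 0.05, and the median was 0.13. For this collagen and matrix list the median was 0.18 within slide 3 and 0.03 between slides 4 and 2, and its levels overlapped between the groups. Postn, a secreted matrix protein that is also on the fibroblast list, was higher by 0.69, thrombospondin Thbs1 by 0.69, Col8a1 by 0.53 and Col22a1 by 0.55, while fibronectin Fn1 was lower by 0.41. Col4a1, of the basement membrane, differed by 0.34.

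Among vessel genes apelin had the smallest p. Apln, the ligand of a receptor that raises contractility, had levels of -1.55, -1.62, -1.04, -0.12 and -0.85 in untreated and of 0.14, -0.08, -0.08 and -0.04 in treated hearts. The treated values were close to each other and just above untreated replicate 4, with a difference of 1.02 (95% interval 0.48 to 1.56, limma adjusted p = 0.39), 0.51 within slide 3 and 1.14 at the second probe. Its untreated minus db/+ difference was -1.31. Ptch1, the hedgehog receptor, was higher by 1.02 with 2 untreated arrays above background, Angpt2, which loosens vessels, by 0.49 and Vegfb by 0.24 (-0.06 at another probe), and of 30 vessel genes 4 were higher and 0 lower with a median of -0.02. The Ptch1 probe passed the filter only through the treated arrays. Of 12 adipokines and receptors, Apln was higher, and Fgf21 and Rbp4, a retinol carrier made by liver and fat, were lower, Rbp4 by 2.28. The groups overlapped for Rbp4, which differed by -3.39 between slides 4 and 2 and by -0.84 within slide 3. Among 26 genes of sodium and water handling, renin Ren1 was lower by 1.02 without overlap at its brightest probe and by 0.22 at the other, and the exchanger Slc9a3 was higher by 1.02, above background on 2 arrays of each group. Slc12a1, the salt transporter of the kidney loop, showed the largest upward difference among genes above background on all 10 arrays, 1.80 (95% interval 0.46 to 3.14), of which 0.36 was seen within slide 3.

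Inflammatory genes showed no common direction. Among all genes, 4.25% were higher and 4.78% lower at an unadjusted p under 0.05. Of 28 cytokine and NF-kB genes 2 were higher, lipocalin Lcn2 by 1.0 and the endothelial selectin Sele by 0.91, and 2 lower, the chemokine Ccl5 by 0.47 and the adhesion molecule Vcam1 by 0.37. Of 25 TNF ligands and receptors 5 were higher and 2 lower, with Tnfsf18 at 0.93, Tnfrsf11b, the decoy receptor osteoprotegerin, at 0.84, Tnfsf14 at 0.49, the death receptor Tnfrsf10b at 0.39 (-0.05 at another probe), and lymphotoxin Lta at -0.61. Interferon and MHC class I genes had 7 of 32 differences above 0 and a median of -0.17, with the GTPase Gbp3 at -1.30, while the probes of the peptide loader Tapbp gave -0.35 and 0.49 and antiviral Mx1 was higher by 0.86. Among untreated hearts the level of this list was 1.0 in replicate 4 and -0.38 to 0.13 in the others, which overlaps the treated range of -0.35 to 0.52. Glutathione transferases split, with Gsta2 higher by 0.62, Gstm2 by 0.60 and Gsta1 by 0.52 without overlap, and Gsta3 lower by 0.87 and Gstt1 by 0.50.

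Ribosomal protein genes showed the most uniform shift of the 35 lists of genes by function. At the brightest probes all 42 differences were below 0, from -0.68 to -0.15 with a median of -0.42, where the median of all genes was -0.006, and 29 of the 42 had an unadjusted p under 0.05, against 4.78% of all genes on that side. Rpl3, of the large subunit, had levels of -1.03, -1.51, -1.49, -1.95 and -1.27 in untreated and of -2.32, -2.22, -2.06 and -1.91 in treated hearts. Untreated replicate 4 reached the treated range, and the difference was -0.68 (95% interval -1.06 to -0.29, limma adjusted p = 0.41). Rps16, of the small subunit, did not overlap, with a difference of -0.64, Rplp0 of the stalk gave -0.59, and Rps20 and Rpl4 stood at the small end with -0.17 and -0.15. Of 22 further probes of these genes, 21 were below 0 and 1 above, that of Rps20 at 0.23, with a median of -0.29. The median was -0.39 within slide 3 and -0.43 between slides 4 and 2, and 41 of the 42 had the same sign in both. Such genes have many processed copies in the genome, and the heart and reference channels gave medians of -0.29 and 0.16. With slide as a fixed block 7 were lower at an unadjusted p under 0.05 and 41 were below 0, without treated replicate 2 the count was 16, without untreated replicate 1 it was 18, and without treated replicate 1 it was 19.

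The list level of the ribosomal proteins was 0.43, 0.08, 0.33, -0.15 and 0.34 in untreated and -0.27, -0.32, -0.17 and -0.11 in treated hearts, so that 4 of the 5 untreated hearts were above all treated ones. The level of 27 sarcomere and Z-disc genes ran the other way among the untreated hearts, with -0.41, 0.64, -0.70, 0.38 and -1.05, and stood at 0.01 to 0.33 in treated hearts. Cardiomyocyte markers did the same, with -0.80, 0.66, -0.61, 0.32 and -1.17 in untreated and 0.03 to 0.47 in treated hearts. The part of muscle content in the ribosomal shift was not tested. Of the sarcomere genes 22 of 27 differences were above 0 with a median of 0.26. The highest member was Myo3b, a myosin with a kinase domain that is not a part of the sarcomere. It was higher by 1.5, with 3 untreated and 0 db/+ arrays above background, and passed the filter only through the treated arrays. The reference channel of the sarcomere list had a median difference of -0.48, and the median of sarcomere and Z-disc genes was 0.63 with spots flagged as outliers kept. Cell cycle genes had 5 of 35 members lower and 0 higher, namely the kinases Aurka by 0.46, Cdk1 by 0.38 and Plk1 by 0.34, the replication factor Mcm5 by 0.43 and cyclin Ccnb2 by 0.47. The cell cycle list had a median of -0.08, with -0.19 within slide 3 and -0.04 between slides 4 and 2. Its levels overlapped between the groups, and 12 of the 35 differences were above 0. In the ER list of 38 genes the translocon parts Sec63, Ssr1 and Ssr3 were higher by 0.22 to 0.26 at their brightest probes (other probes of Sec63 and Ssr1 gave -0.12 and -0.09). Sec61a1, Creld2 and Atf4 were lower by 0.25 to 0.32, and other probes of Sec61a1 gave -0.20 and -0.01. Of 40 secretion genes 4 were higher and 0 lower, with Rab27b at 0.49 and Sec24a at 0.34 (0.13 and -0.07 at other probes).

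The other lists held few members with an unadjusted p under 0.05. They were 1 higher and 0 lower of 30 apoptosis regulators (Mcl1 by 0.27), 0 of 22 cytosolic heat shock proteins, and 0 higher and 1 lower of 31 peroxisome genes. Of 19 clock genes 1 was higher, Ciart by 1.21, and 2 lower, among them Cry1 by 0.54, and of 20 fetal, atrial and stress genes 3 were higher, with the muscle growth inhibitor Mstn at 0.91. Of 19 glucocorticoid-induced genes Lcn2 alone passed, although the median of that list in untreated against db/+ hearts was 0.99.

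Markers of other tissues moved in some hearts. The summed heart signal, scaled between arrays by Aquantile, of 11 hepatocyte markers ranged from 2396 to 173315 in untreated hearts (median 21616) and from 3131 to 11158 in treated hearts (median 3443), and 4 of the 11 were above background on all 10 arrays. Untreated replicate 2 had the highest hepatocyte level, 2.40, against -0.92 to 0.87 in the other untreated hearts. The 8 tested hepatocyte markers had a median of -1.27, and of -0.01 within slide 3. Liver genes were prominent among the lowest differences between slides 4 and 2. The vitamin D carrier Gc differed by -4.01 between those slides and by -1.18 within slide 3, and the gluconeogenic Fbp1 by -4.32 and -0.78. Mug1, a plasma protease inhibitor of liver, had levels of 2.93, 6.25, 5.37 and 3.76 in untreated replicates 1, 2, 3 and 5, with replicate 4 left out by its spot flag, and of 1.51, -0.31, -0.62 and 0.45 in treated hearts, a difference of -4.32 with 2 treated arrays above background. Cyp4a14, listed above among PPAR targets, is also a liver gene, and the part of liver RNA in its value was not tested. Fgf21 and Rbp4 were highest in untreated replicate 2 as well, and the part of liver RNA in their values was not tested either.

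Exocrine gland markers were higher in treated hearts by their summed signal, 31236 to 35177 against 18005 to 25820 in untreated hearts, and Cel and Cela1 were the members with an unadjusted p under 0.05. The list levels of the same markers overlapped, at -0.24 to 0.09 in untreated and 0.07 to 0.19 in treated hearts. Over the 6 tested exocrine members the heart channel had a median difference of 0.86 and the reference channel 0.66. Smooth muscle markers had list levels of 0.28, -0.02, -0.01, 0.29 and 0.12 in untreated and of -0.15, -0.26, -0.10 and -0.07 in treated hearts, without overlap, and all 6 differences were below 0 with a median of -0.24. Their summed signals, 81033 to 113575 in untreated and 70341 to 84165 in treated hearts, overlapped, and Tagln, an actin-binding protein, was lower by 0.42. Fibroblast markers had 2 of 8 differences above 0 and a median of -0.16, with overlapping levels. Neutrophil markers stood apart in treated replicate 2, at a list level of 1.87 against -0.35 to -0.16 in the other treated hearts, and Ltf, a granule protein, was higher by 1.58 with 2 untreated arrays above background. Adipocyte markers overlapped, with summed signals of 450232 to 726163 in untreated and 425256 to 768551 in treated hearts, while their 7 tested members had a median of -0.32 and 2 were lower at an unadjusted p under 0.05. Endothelial and macrophage markers overlapped as well, and 0 of their 8 and 9 members had an unadjusted p under 0.05.

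**Figure D2:**
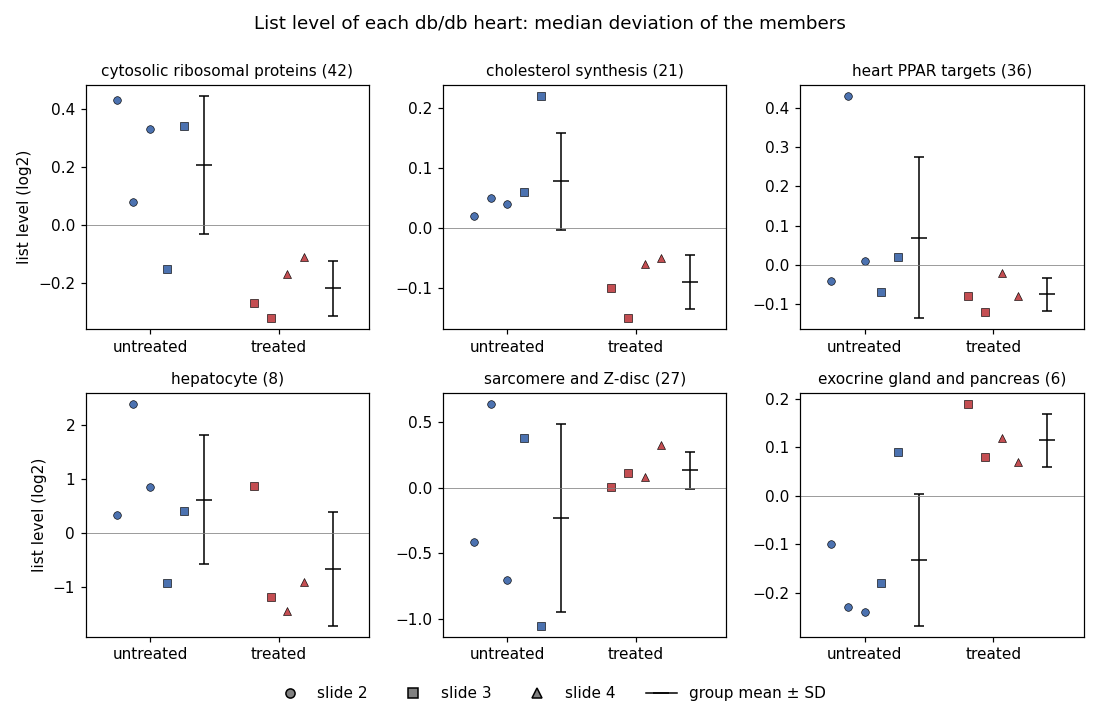
List level of each db/db heart, the median over the members of the deviation from their mean (log2), for 6 lists with the number of genes in brackets. Symbols give the slide and bars the group mean ± SD of 5 untreated and 4 treated samples; cholesterol synthesis separates the groups, and untreated replicate 2 stands highest for the PPAR targets and the hepatocyte markers.

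Beyond the lists, the genes that separated the groups most had varied roles. Higher in treated hearts were the milk casein Csn1s1 by 2.69 (3 untreated arrays above background), Crisp1, a secretory protein of the epididymis, by 2.56 (at least 2.24-fold, with 0 untreated arrays above background), BC048679 by 1.65, Ism1 by 1.35, the small GTPase Rasl10a by 1.27, the growth factor Egf by 1.19, the receptor Il17re by 1.14, the transposase-derived Pgbd5 by 0.87 and the nuclear protein Mllt11 by 0.50. The probes of Csn1s1 and Crisp1 passed the filter only through the treated arrays, where they were high. Pgbd5 had levels of 0.91, 0.60, 0.98, 1.35 and 0.66 in untreated and of 1.93, 1.77, 1.77 and 1.61 in treated hearts, a difference of 0.87 that was 0.85 within slide 3. The groups did not overlap (95% interval 0.57 to 1.17, limma adjusted p = 0.17). Lower were Ramp1, which with its partner forms the receptor of the vasodilator CGRP, by 1.07, the dopamine receptor Drd2 by 1.04 at 1 probe (0.08 at the other), the bradykinin receptor Bdkrb1 by 0.99, the keratin Krt18 by 0.98 and Ldhal6b by 0.93. Ramp1 had levels of 1.75, 1.41, 0.97, 0.32 and 0.84 in untreated and of 0.08, -0.12, 0.09 and -0.09 in treated hearts, a difference of -1.07 (95% interval -1.54 to -0.60, limma adjusted p = 0.38). The reference channel differed by 0.73 at the Bdkrb1 probe, by 0.74 at the Drd2 probe and by -0.81 at the Ism1 probe. Treated replicates 3 and 4, which were averaged, disagreed for Ism1, at 2.87 and 4.55, and for Drd2, at 1.61 and 3.27. Treated replicate 3 for Ism1 and treated replicate 4 for Drd2 lay inside the untreated range. These genes therefore separated the groups only after averaging.

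Agreement between slides was read on separate arrays, since treated minus untreated within slide 3 shares no array with treated on slide 4 minus untreated on slide 2. Over 23052 probes above background on all 10 arrays, Pearson's r of these differences was 0.23 and Spearman's rho 0.25, across probes that are not independent of each other. The sign was the same for 59.5% of all these probes, for 64.2% of the 2000 with the largest slide 4 minus slide 2 difference, for 67.0% of the 500 largest and for 71.0% of the 100 largest. The 500 largest had a median absolute difference of 1.04 between slides 4 and 2, and in the same direction a median of 0.21 within slide 3. Within slide 3, Mmp3 differed by 0.84, Pgbd5 by 0.85 and Rpl3 by -0.66, close to their values between slides 4 and 2 of 1.0, 0.86 and -0.64, while Cyp4a14 had -0.44 and -3.47. Between slides 4 and 2, treatment and slide cannot be told apart.

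**Figure D3:**
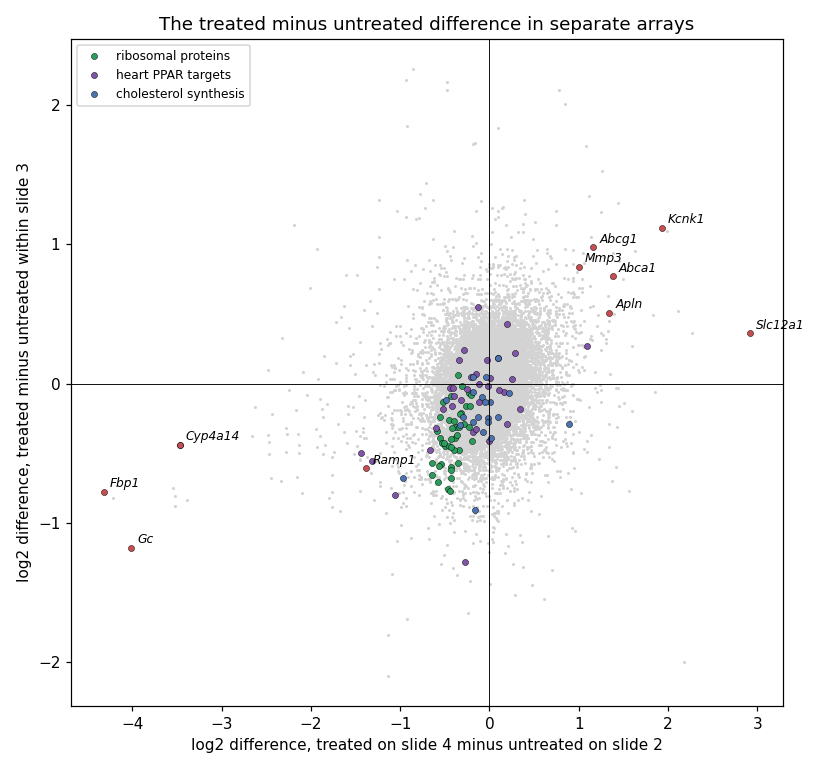
Log2 difference between treated and untreated hearts within slide 3 (vertical) against treated on slide 4 minus untreated on slide 2 (horizontal), for probes above background on all 10 arrays in grey and for 3 gene lists and single named genes in colour. Ribosomal proteins lie mostly at the lower left, and Fbp1, Gc and Cyp4a14 lie far left, with -0.78, -1.18 and -0.44 within slide 3.

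The untreated against db/+ difference within slide 2, from untreated replicates 1 to 3 and db/+ replicate 5, shares no array with slide 3 either. Over 22979 probes its Pearson's r with the treated against untreated difference within slide 3 was -0.03, and the sign was opposite for 52.4% of all probes and for 44.8% of the 500 with the largest slide 2 difference. These values are a description of a single db/+ heart against 3 untreated hearts.

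A list of 25 genes that the study singled out on these same samples had 13 higher and 2 lower at an unadjusted p under 0.05, with a median of 0.39, and since it was chosen on these arrays it is no independent evidence of direction. Among its members not given above, Anxa13, a membrane-binding annexin, was higher by 0.72 and Col23a1 lower by 0.18, while the stress factor Hsf1 differed by -0.19 and the myosin Myh9 by 0.24.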

How the data were processed

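RNA of 15 whole mouse hearts was hybridised to Agilent 4x44K arrays against a common reference. Per the file headers, the authors read each array with Agilent Feature Extraction 9.5.1.1, which subtracted background from the spot intensity of each channel and normalised the dyes by LOWESS. The deposited LogRatio is the log10 of heart (Cy5) over reference (Cy3), and the series value table held the same values (largest difference 0). Here the deposited ratios were turned into log2, spots flagged as outliers and control spots were left out, and spots were averaged per probe (43379 spots, 41174 probes). Symbols came from RefSeq through the accession for 23477 probes and through the symbol for 9569, and the name in the files was kept for 8128. A probe was tested if the heart was well above background on at least 4 of 5 arrays of a group, and a gene was read at its brightest probe.

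All 3 groups entered 1 linear model (limma 3.58.1, R 4.3.3), and p-values were adjusted by the method of Benjamini and Hochberg over 27593 probes, of which 1794 lacked an array. The script was tested on simulated data. The members and lists were chosen with earlier results of these data known. Genes were named by rule: all tested members of the PPAR lists, up to 5 members of each other list by p, the genes the study singled out, the 15 largest differences each way without overlap, bounds up to 10 each way, the 10 smallest p and the 15 largest differences each way between slides 4 and 2. Some genes that the rule names are not reported here, though they stay in the counts and medians. Other list members given in the text were added after their values were seen. The sources used here give 5 hearts a group and no batch of the mice, and p-values measure the spread between these samples. The number of arrays limits the precision. Replicate numbers do not pair the samples, since deviations of equal numbers correlated between -0.18 and 0.02. Alternatives were another background correction and dye normalisation, the value table, Aquantile scaling, filters, slide as a block, array weights, 2 groups only, treated replicates 3 and 4 kept apart, a replicate block, and each array left out. Keeping spots with an outlier flag and leaving out both treated replicates 3 and 4 were added after seeing the data.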

Additional observations from a re-analysis of the deposited data

Results flagged for a closer look

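In 13 of 193 groups of levels tested, the highest or lowest heart lay far from the rest of its group by Dixon's test (gap over range above 0.71 for 5 samples and 0.829 for 4), and chance gives about 1 group in 20. Several concern liver genes. Ugt2b37, a glucuronidating enzyme, stood at 5.76 in untreated replicate 2, and in treated replicate 1 Ugt2b36 stood at 1.11, Fbp1 at 0.85 and the acute phase protein Saa2 at 2.74. The ceramidase Asah2 stood at 1.09 in untreated replicate 2 and at 1.07 in the mean of treated replicates 3 and 4. That mean also stood apart for 4930555F03Rik at 0.22. The drug exporter Abcb1a was at 0.22 and Olfr435 at 1.25 in untreated replicate 3, the keratin Krt34 at 1.18 in untreated replicate 5 and the signalling factor Stat4 at -0.70 in untreated replicate 1. The fast myosin Myh1 was at -0.77 in treated replicate 1 and Prrt3 at 3.85 in treated replicate 5.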

How the results depend on the processing

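The count of 0 probes at an adjusted p under 0.05 stayed 0 in most settings. It was 1 when slide entered as a random block, 1 with treated replicates 3 and 4 as separate mice and 1 at an adjusted p under 0.10, 4 with array weights, and 0 to 14 when single arrays were left out, the 14 without untreated replicate 4. Probes at an unadjusted p under 0.05, 2423 as reported, numbered 1396 with normexp and loess (37.8% of them higher, against 45.6%), 808 with slide as a fixed block, 3840 with array weights, 1898 without treated replicates 3 and 4, and 1719 to 2948 with single arrays left out. With the replicate number as a block, 0 probes were called and 2861 had an unadjusted p under 0.05. Of the 500 largest differences between slides 4 and 2, 67.0% kept their sign within slide 3, 79.4% with normexp and loess, and 55.2% to 72.8% with single arrays left out, lowest without untreated replicate 5. The correlation of slide 2 with slide 3 was -0.12 to 0.10 with single arrays left out. Of 356 named genes, 39 turned sign with slide as a fixed block and 22 with normexp and loess. Among those with an unadjusted p under 0.05 as reported, these were Dntt (-0.03) and Sun5 (-0.20) for the block, and Kcne3 (-0.01) for normexp. The cause was not tested. Aquantile scaling leaves ratios within an array unchanged by construction. Dim probes, such as Kcnip4 in untreated hearts, give bounds only.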
